A study of Mus musculus with 147 samples.

Results

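The small leucine-rich proteoglycans are secreted matrix proteins with a core of leucine-rich repeats, and most of them carry glycosaminoglycan chains. They bind collagen fibrils, set fibril width and spacing, and hold growth factors such as TGF-β in the matrix. The 7 genes described here are the proteoglycan genes looked up by symbol in the count tables: biglycan (Bgn), decorin (Dcn) and asporin (Aspn) of class I, lumican (Lum), fibromodulin (Fmod) and Prelp of class II, and mimecan (Ogn, also called osteoglycin) of class III. All 7 were among the 35438 genes of the tables. In vessel walls, biglycan is known as a product of smooth muscle cells, while decorin and lumican are best known from fibroblasts.

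The wells came from adult C57BL/6 mouse kidney cortex, sorted for a yellow fluorescent protein (YFP) placed under the upstream control region of the renin gene Ren1c. Mice of both genotypes carried this Ren1c-YFP transgene. There were 51 wells of WT renin cells (Ren1c+/+ Ren1c-YFP) and 96 wells of Renin-null cells (Ren1c-/- Ren1c-YFP), and the Renin-null wells were sequenced as 2 libraries of 48 wells named YFP1 and YFP2. The sort therefore depends on the activity of that promoter fragment in each cell. Each well was captured on a Fluidigm C1 chip and its polyadenylated RNA amplified with SMART-Seq v4, with no molecular identifiers. The labels name no mouse or capture for a well, so each genotype was treated as 1 sample. No test was made and the intervals cover counting error only. Capture, library and genotype cannot be told apart.

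Estimated counts per well ran from 26401 to 17124854 in WT (median 1525970, sum 197904443) and from 3628 to 14505243 in Renin-null wells (median 4107950, sum 398812805). The median share of mitochondrially encoded genes was 60.4% in WT and 12.4% in Renin-null wells, and 34 WT and 36 Renin-null wells were above 25%. Ren1 checked the labels: it was detected in 51 of 51 WT wells and in 0 of 96 Renin-null wells. The 0 of 96 wells allow a share of up to 3.77% (upper bound of the Clopper-Pearson interval). Here a gene is called detected in a well with at least 10 counts and at least 10 CPM (its counts scaled to a library of 1e6). Acta2, the smooth muscle actin, was detected in 45 WT and 83 Renin-null wells, and Akr1b7, an aldo-keto reductase used as a renin cell marker, in 51 and 65.

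Some wells stood apart. Of the Renin-null wells, 4 pairs had near-identical profiles (Pearson r of log2(CPM + 1) at least 0.974, the next pair 0.896), 3 of them linking a YFP1 with a YFP2 well. In 13 Renin-null wells and 1 WT well at least 50% of the markers of endothelium, macrophages, podocytes or a tubule segment were detected. Counts of wells with Bgn, Prelp and Ogn are also given without them.

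The genes lie in clusters. On GRCm38, Dcn (chr10:97479609-97518143) and Lum (chr10:97565128-97572703) share a cluster with Kera and Epyc that spans 203 kb. Aspn (chr13:49544443-49567565) and Ogn (chr13:49608046-49624501) sit with Ecm2 and Omd within 120 kb. Prelp (chr1:133910304-133921414, minus strand) and Fmod (chr1:134037254-134048277) lie 550 and 677 kb from the end of Ren1, the gene disrupted in the Renin-null mice, and Bgn is X-linked (chrX:73483602-73495933). Apart from Prelp all 7 are on the plus strand. Aspn shares 7 exon bases with Cenpp, a centromere protein gene on the other strand that reached 0.544 CPM in Renin-null wells. Prelp shares 350 with the antisense gene Gm15851, which has no row in the tables. The kit keeps no strand, so reads of Prelp and this partner cannot be told apart within the shared bases.

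The promoters of 4 genes detected in at least 10 Renin-null wells (Bgn, Aspn, Prelp and Ogn) follow, taken from RefSeq on GRCm38.p6, 250 bases before to 50 after the start and read 5′ to 3′ on the gene's strand. The promoter table matched 5 of the 7 genes (Bgn, Fmod, Aspn, Prelp and Ogn). Capitals mark matches on either strand to a TATA box (TATAAA), a GC box (GGGCGG), the core of the cyclic AMP response element (TGACG) or the CArG box of smooth muscle genes.
Bgn, chrX:73483351-73483650: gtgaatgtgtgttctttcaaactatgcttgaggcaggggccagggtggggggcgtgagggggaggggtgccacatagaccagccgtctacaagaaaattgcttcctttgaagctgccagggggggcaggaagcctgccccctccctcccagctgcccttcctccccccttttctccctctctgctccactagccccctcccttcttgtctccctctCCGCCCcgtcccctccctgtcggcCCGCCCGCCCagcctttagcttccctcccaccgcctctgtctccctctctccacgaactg
Aspn, chr13:49544193-49544492: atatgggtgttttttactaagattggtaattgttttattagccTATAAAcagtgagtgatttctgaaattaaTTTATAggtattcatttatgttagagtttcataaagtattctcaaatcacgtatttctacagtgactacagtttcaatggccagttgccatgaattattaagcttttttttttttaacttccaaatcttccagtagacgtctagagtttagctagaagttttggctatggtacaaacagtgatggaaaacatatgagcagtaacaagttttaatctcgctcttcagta
Prelp, chr1:133921352-133921651: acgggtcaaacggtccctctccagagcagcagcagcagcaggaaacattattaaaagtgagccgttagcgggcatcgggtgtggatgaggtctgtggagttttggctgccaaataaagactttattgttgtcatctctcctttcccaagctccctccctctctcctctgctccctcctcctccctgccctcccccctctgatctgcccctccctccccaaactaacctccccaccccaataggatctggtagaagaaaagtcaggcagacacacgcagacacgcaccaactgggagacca
Ogn, chr13:49607765-49608064: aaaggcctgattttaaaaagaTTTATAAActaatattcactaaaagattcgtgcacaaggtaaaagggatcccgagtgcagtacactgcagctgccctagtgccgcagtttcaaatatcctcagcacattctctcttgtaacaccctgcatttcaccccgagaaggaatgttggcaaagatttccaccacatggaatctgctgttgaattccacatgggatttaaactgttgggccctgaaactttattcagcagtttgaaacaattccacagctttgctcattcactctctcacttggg
Bgn was GC-rich (63.7% against a median of 52.7% over 32851 promoters) and held 3 GC boxes, beginning 34, 10 and 6 bases before the start, all on the opposite strand and the last 2 overlapping. A GC box occurred in 35.7% of all promoters. Aspn was AT-rich, with 31.0% GC. It held the letters TATAAA 207 bases before the start and their reverse 178 before it, and Ogn held one overlapping pair at 229 and 227. Such letters occurred in 13.6% of all promoters. Neither TGACG (20.8% of promoters) nor the CArG box (1.63%) was found in these 4 windows, and Prelp matched none of the motifs.

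Biglycan was the most abundant of the 7 in both genotypes. Summed over wells, WT cells had 84459 counts of it, or 427 CPM. Renin-null cells had 534945, or 1341 CPM, with 1027 CPM in YFP1 and 1604 in YFP2. In WT wells Bgn ran from 0 to 2738 CPM with a median of 8.39. In YFP1 it ran from 0 to 4460 with a median of 279, and in YFP2 from 1.17 to 8102 with a median of 295. The ranges overlapped, and the median of both Renin-null libraries lay above that of WT. RNA quality differed too: 15 of 51 WT and 57 of 96 Renin-null wells passed the quality limits of at least 100000 counts, at least 1000 genes and no more than 25% mitochondrial counts. Among those the median was 45.1 CPM in WT, 749 in YFP1 and 776 in YFP2, and Bgn was detected in 8 of 15 (53.3%) and 47 of 57 (82.5%). The WT level rested on few wells: 8 wells with at least 10 counts and 100 CPM held 98.9% of its counts, and the highest well alone held 35.0%. In Renin-null cells 46 wells passed these limits, 21 of YFP1 and 25 of YFP2, and the highest held 16.3%.

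**Figure D1:**
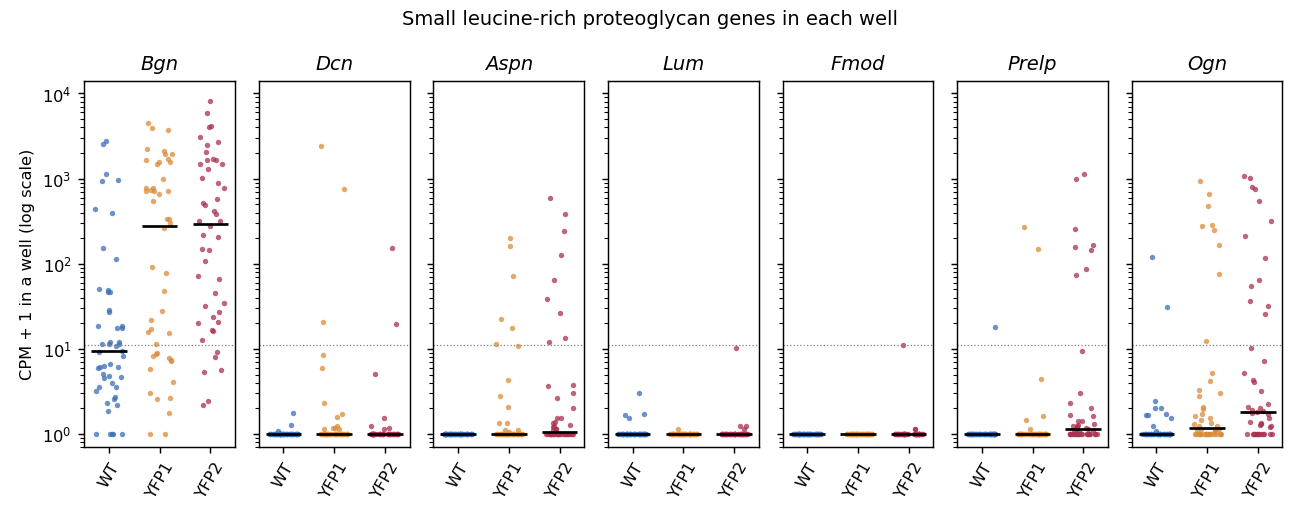
Level of each of the 7 genes in every well, as CPM + 1 on a log axis, for 51 WT, 48 YFP1 and 48 YFP2 wells; black lines are medians and the dotted line is 10 CPM. Only Bgn has a median above 10 CPM, in YFP1 (279) and YFP2 (295), while Dcn, Aspn, Prelp and Ogn are high in a few Renin-null wells.

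Bgn was detected in 20 of 51 WT wells (39.2%, Clopper-Pearson 95% interval 25.8 to 53.9) and in 60 of 96 Renin-null wells (62.5%, 52.03 to 72.2). With the near-identical wells counted once it was 56 of 92 (60.9%), and without the wells that held markers of another cell type 52 of 83 (62.7%). Since depth differed, each well was also thinned to 62000 counts. At least 1 Bgn count was then left in 22 of 49 WT wells (44.9%) and 68 of 83 Renin-null wells (81.9%).

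The ratio of the sums was 3.14-fold for Bgn, a log2 ratio of 1.65 (95% counting interval 1.64 to 1.66). This must be read against the other genes, since the median gene with a ratio was itself 1.17 higher on the log2 scale in the Renin-null sums. Bgn was 0.48 above that median, less than the 1 (2-fold) used here to call a gene higher. The measure mattered for this gene. On the difference of mean log2(CPM + 1), which gives every well equal weight, Bgn was 3.26 higher in Renin-null wells and 3.13 above the median gene, past the threshold that 7.13% of all genes passed on that scale.

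Decorin, the nearest relative of biglycan, was all but absent from WT wells, with 5 counts in 3 wells. In Renin-null wells it had 15791 counts (39.6 CPM), 80.3 CPM in YFP1 and 5.58 in YFP2, and was detected in 4 of 96 wells. These were Renin-null well 31 with 2449 CPM, well 7 with 753, well 51 with 154 and well 43 with 19.6. The first 3 held 98.9% of the counts. The log2 ratio was 10.61 (9.39 to 12.24), which describes these few wells and not the population. On mean log2(CPM + 1) Dcn differed by only 0.50.

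Asporin, the third class I member, had 0 counts in all 51 WT wells. It had 12824 in Renin-null wells (32.2 CPM), 17.7 CPM in YFP1 and 44.2 in YFP2, and was at least 2121-fold higher there, against a floor of 3 counts over the WT group. It was detected in 13 wells, 5 of YFP1 and 8 of YFP2, between 10.4 and 586 CPM with a median of 70.1. The 0 of 51 WT wells allow a share of up to 6.98% of wells with a count (upper bound of the Clopper-Pearson interval). The highest well held 33.2% of the counts, and 2 of the 13 wells were among those with markers of another cell type.

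Among the class II genes, lumican was not detected in any well of either genotype. It had 4 counts in WT and 7 in Renin-null wells, a log2 ratio of -0.20 (-2.18 to 2.02) whose interval includes 0, so no direction can be given. Fibromodulin had 0 counts in WT and 79 in Renin-null wells, 77 of them in well 51, which was also one of the Dcn wells. Its ratio of at least 13.1-fold is that of a single well.

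Prelp, a proline- and arginine-rich member, had 27 counts in WT, all in 1 well at 17.1 CPM. Renin-null wells had 18388 counts (46.1 CPM), and the libraries differed, with 5.13 CPM in YFP1 and 80.3 in YFP2. It was detected in 2 YFP1 and 8 YFP2 wells, between 72.2 and 1142 CPM. The log2 ratio was 8.40 (7.86 to 9.00). Of these 10 wells, 5 were among those with markers of another cell type, and 4 belonged to near-identical pairs; leaving the former out gave 5 of 83 wells and a log2 ratio of 7.74, and counting the latter once gave 8 of 92. Their part in the Prelp level was not tested.

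Mimecan was the second most abundant member. Its level was 6.44 CPM in WT, where 1 well held 83.7% of its 1275 counts, and 137 CPM in Renin-null cells, with 90.02 in YFP1 and 176 in YFP2. It was detected in 2 of 51 WT wells, at 120 and 30.2 CPM, and in 19 of 96 Renin-null wells (19.8%, 12.4 to 29.2). The Renin-null wells ran from 11.3 to 1063 CPM with a median of 284, so both WT wells lay inside their range. Counting near-identical wells once gave 18 of 92 and leaving out the wells with markers of another cell type 17 of 83. After thinning at least 1 count was left in 2 of 49 WT and 21 of 83 Renin-null wells. The ratio was 21.3-fold, a log2 ratio of 4.41 (4.33 to 4.49). This lay 3.24 above the median gene, and 4.89 above it with the highest well of each genotype left out.

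Compared per kilobase of the longest coding transcript, biglycan made up 98.6% of the summed level of the 7 genes in WT and 84.4% in Renin-null cells. Per kilobase, Renin-null levels were 555 CPM for Bgn, 53.4 for Ogn, 22.5 for Dcn, 13.8 for Aspn and 12.8 for Prelp. Fmod had 0.063 and Lum 0.0072. Bgn was first in both libraries. The order below it was not shared, since Dcn stood above Ogn in YFP1 (45.7 against 35.1 CPM per kilobase) and last of the 5 in YFP2 (3.18), where Prelp (22.2) stood above Aspn (19.0).

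Counted together, 5 of the 7 genes (Dcn, Aspn, Fmod, Prelp and Ogn) had a summed level at least 2-fold above the median gene in Renin-null cells, and Bgn lay less than that from it. Lum was at -1.38, but on 11 counts gives no direction. Sums over single wells scatter widely, and 37.6% of the 18720 genes with a ratio were called higher by the same rule and 32.3% lower. The median of the 7 was 3.24 above the median gene. With the highest well of each gene left out, 4 of the 6 members that kept a ratio were called (all genes: 37.5%). In both YFP1 and YFP2 taken alone 4 of the 6 members with a ratio in both were called (all genes: 24.1%). These were Dcn, Aspn, Prelp and Ogn. For Prelp, 89.6% of the YFP1 counts were in well 47, whose profile was near-identical to that of YFP2 well 95. For Dcn, 97.0% of the YFP2 counts were in well 51. The libraries are therefore not separate evidence for these 2 genes. YFP1 alone gave 4 (all genes: 36.9%) and YFP2 alone 5 (all genes: 37.4%). On mean log2(CPM + 1) the 3 called were Bgn, Aspn and Ogn (all genes: 7.13%). The study had itself selected Bgn, Ogn and Aspn on these same wells, so their direction is not independent evidence.

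**Figure D2:**
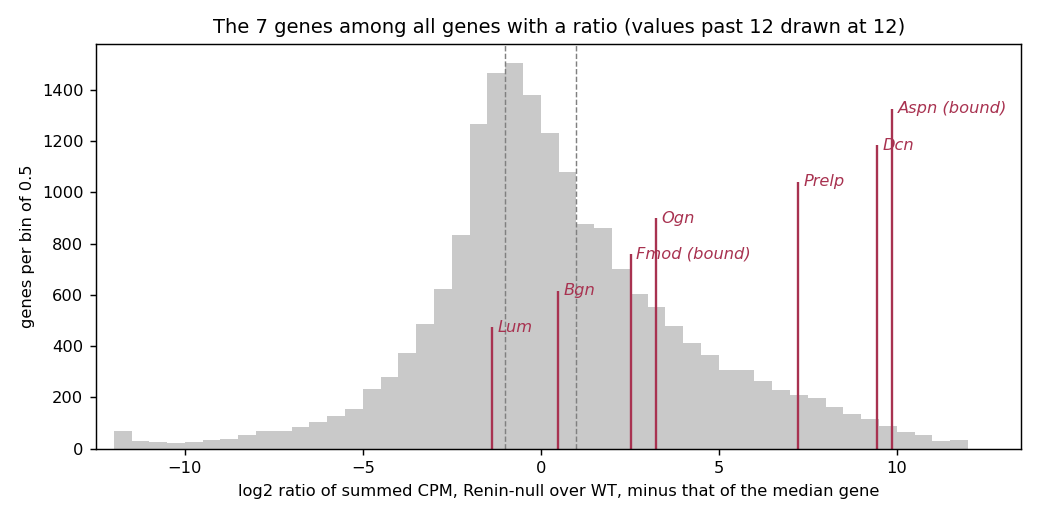
Histogram of the log2 ratio of summed CPM (Renin-null over WT) minus that of the median gene, in bins of 0.5 over 18720 genes; dashed lines mark 2-fold and red lines the 7 genes, with heights chosen only to separate their names. Dcn and Aspn lie in the upper tail, at 9.44 and 9.88, and Bgn in the middle, at 0.48.

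The study asked what Renin-null cells become when they cannot make renin, so the genes were next placed beside Acta2 and Akr1b7 well by well. The summed level of Acta2 was 4349 CPM in WT against 4291 in Renin-null cells. That of Akr1b7 was 4528 against 2011 CPM. Relative to the median gene these were -1.19 and -2.34 on the log2 scale. The medians over wells had another order, 143 against 1074 CPM for Acta2 and 254 against 376 for Akr1b7, and 3 wells held 47.7% of the WT Akr1b7 counts. All 20 WT wells with Bgn also had both genes, in a group where 45 of 51 wells did. Of the 60 Renin-null wells with Bgn, 51 had both, 8 had Acta2 only, 1 had Akr1b7 only and 0 had neither. Among all 96 Renin-null wells these 4 numbers were 63, 20, 2 and 11. Put the other way, Bgn was detected in 51 of the 63 wells with both genes (80.95%, 69.1 to 89.8). Among the 11 with neither it was detected in 0 (upper bound 28.5%). The count limit can make a shallow well miss all these genes at once. Wells 8 and 44, with 10121 and 3628 counts in total, were among the 11 although Bgn stood at 296 and 551 CPM. In wells passing the quality limits, Bgn was detected in 40 of 42 with both genes (95.2%) and 0 of 6 with neither (upper bound 45.9%).

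Low counts of Acta2 and Akr1b7 were spread over many wells, so the comparison was repeated with 100 CPM asked of both. Bgn was then detected in 46 of 51 Renin-null wells with both genes (90.2%, 78.6 to 96.7) and in 7 of 25 with neither (28.0%, 12.1 to 49.4). In WT it was 13 of 24 with both (54.2%, 32.8 to 74.4) and 3 of 12 with neither. The difference between the genotypes among wells with both genes was not tested.

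All 19 Ogn wells of the Renin-null group had Acta2 and 15 had Akr1b7 too, all 13 Aspn wells had Acta2 and 11 had both, and all 10 Prelp wells had both. Acta2 itself was in 83 of 96 wells, so that companion was common. With 100 CPM asked of both, 14 of 19 Ogn, 11 of 13 Aspn and 10 of 10 Prelp wells still had both. In the wells passing the quality limits, however, Ogn was detected in 33.3% of those with 100 CPM of Akr1b7 and in 33.3% of those without. None of the 4 Dcn wells had Akr1b7 by the 10 CPM limit, 2 had Acta2 only and 2 had neither.

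**Figure D3:**
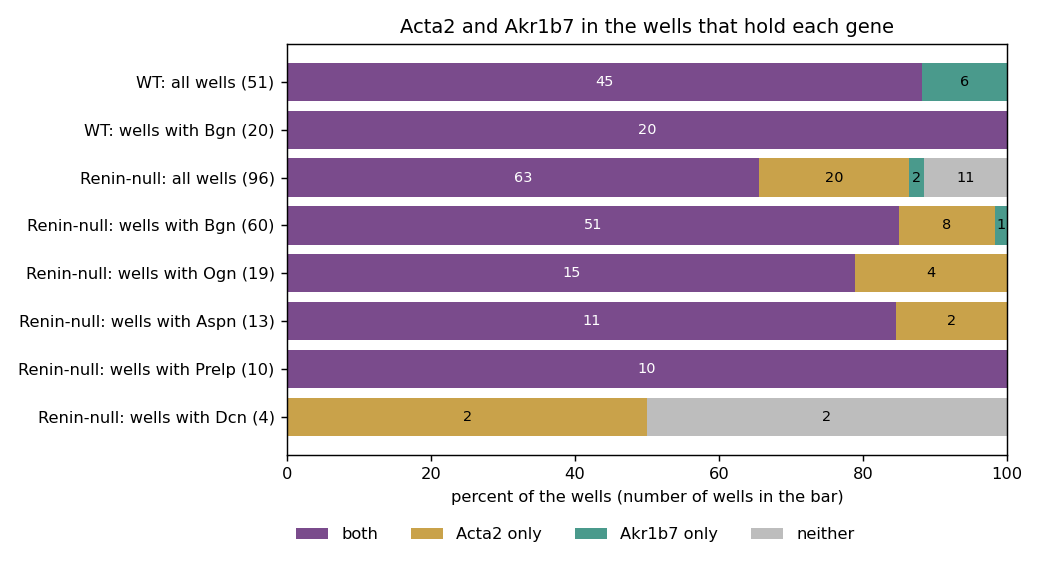
Percent of wells in which Acta2 and Akr1b7 were both detected (at least 10 counts and 10 CPM), one was or neither was, for all wells of a genotype and for the wells that hold Bgn, Ogn, Aspn, Prelp or Dcn; numbers in the bars are wells. Every bar except that of Dcn is made mostly of wells with both, including all 51 WT wells (45 with both).

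The 4 Dcn wells differed from each other. Well 31 had 5136 CPM of Acta2, 597 of Col3a1 and 18.1 of Pdgfra, a receptor that marks fibroblasts, and 5 of the 10 fibroblast markers were detected. It also had 5 of the 7 smooth muscle markers and 4247 CPM of Rgs5. Wells 7 and 51 had 2.23 and 7.20 CPM of Acta2 and 1.67 and 1.44 of Bgn, with at most 1 fibroblast marker detected. Well 43 had 942 CPM of Acta2, 1663 of Bgn and 936 of Ogn, with 6 of the 7 smooth muscle markers. The 13 Aspn, 10 Prelp and 19 Ogn wells had at least 5, 5 and 4 of the 7 smooth muscle markers, and Pdgfra was at most 10.5, 4.13 and 4.97 CPM in them. Of the 10 fibroblast markers 1 to 5 were detected in the Aspn, 3 to 5 in the Prelp and 0 to 5 in the Ogn wells, as many at most as in Dcn well 31, and Col3a1 reached 3581 CPM in an Aspn well.

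Of the 19 Ogn wells 18 had Bgn, as did 13 of 13 Aspn and 10 of 10 Prelp wells, against 60 of all 96. Most of these wells passed the quality limits (19 Ogn, 12 Aspn and 9 Prelp wells), and among such wells Bgn was in 47 of 57 (82.5%). Ogn and Aspn shared 7 wells (36.8% of the Ogn and 53.8% of the Aspn wells), Ogn and Prelp 5, and Aspn and Prelp 3. Only 2 of the 4 Dcn wells had Bgn. In all, 63 of 96 Renin-null wells had at least 1 of the 7 genes and 30 had 2 or more, of which 3 had 4. In WT these numbers were 21 and 2 of 51, and in both groups no well had more than 4. A well with a member, Acta2 and Akr1b7 together was found 21 times in 51 WT wells (41.2%, 27.6 to 55.8) and 52 times in 96 Renin-null wells (54.2%, 43.7 to 64.4). The libraries bracketed the second value, with 37.5% in YFP1 and 70.8% in YFP2.

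Over the 83 Renin-null wells with at least 100000 counts, log2(CPM + 1) of Bgn followed that of Akr1b7 with a Spearman rho of 0.64 and that of Acta2 with 0.60. Bgn also followed total counts (0.33) and the mitochondrial share (-0.34), which all genes of a well have in common. In the 57 of these wells that passed the quality limits, rho was 0.49 with Akr1b7 and 0.33 with Acta2, and 0.069 with total counts. In the 48 WT wells rho was 0.10 with Akr1b7 and 0.37 with Acta2. Ogn followed Bgn weakly (0.34) and Akr1b7 hardly at all (0.12).

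**Figure D4:**
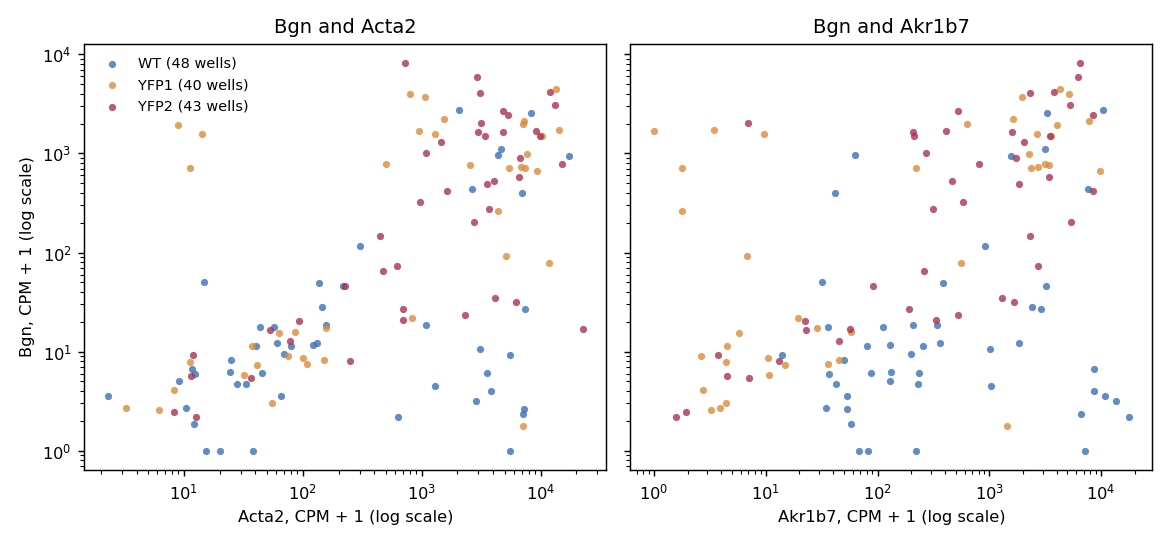
Bgn against Acta2 (left) and Akr1b7 (right) in wells with at least 100000 counts, as CPM + 1 on log axes; each point is a well of WT (48), YFP1 (40) or YFP2 (43). In Renin-null wells Bgn is mostly high where both genes are high, and a few YFP1 wells and 1 YFP2 well have high Bgn at low Akr1b7.

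Of the 2505 other genes detected in at least 20% of the 83 wells, the 5 most like Bgn were Rgs5 (rho 0.69), a regulator of G protein signalling found in mural cells, Mgp (0.67), the matrix Gla protein that inhibits calcification, Tpm2 (0.66), a muscle tropomyosin, Fstl1 (0.65), a secreted glycoprotein, and Tagln (0.64), the smooth muscle protein transgelin. Akr1b7 had rank 6 and Acta2 rank 14 in this order. In the 57 wells passing the quality limits rho was lower and the order changed, with 0.52 for Mgp, 0.50 for Rgs5, 0.49 for Akr1b7, 0.48 for Tpm2, 0.47 for Fstl1 and 0.44 for Tagln. For Ogn they were Pbxip1 (0.50), Crispld2 (0.49), Pim1 (0.48), Crip2 (0.47) and Fosb (0.45), with Acta2 at rank 375 and Akr1b7 at rank 1466. In the quality wells Fosb (0.51) and Crispld2 (0.50) were highest of these 5. Of the 7 genes only Bgn and Ogn were frequent enough for this comparison.

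The other genes of the pathway were read from lists, whose counts stand beside 37.6% of all genes called higher, 32.3% lower and 24.1% higher in both libraries. Of 11 further small leucine-rich repeat genes, 7 had a ratio, 2 were called higher and 2 lower. Omd (osteomodulin) was 4.71 and Optc (opticin) 3.23 above the median gene, from 0.04 and 0.02 CPM in WT to 2.38 and 0.43 CPM. Of the Omd counts 86.01% were in 1 well, without which it was 1.84 above the median gene, and Optc was detected in 0 wells. Ecm2, the neighbour of Aspn, was 0.92 above the median gene, with 93.9% of its Renin-null and 98.4% of its WT counts in 1 well each. Without these wells it was 2.10 above the median gene, and in YFP1 alone it was at -4.64. The lowest were Chadl at -12.61, with 99.3% of its WT counts in 1 well, Podn at -1.45 and Tsku at -0.92.

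Of 21 enzymes that build the linkage region and the chondroitin or dermatan sulfate chains, 20 had a ratio, 10 were higher and 5 lower, with a median of 1.05 above the median gene. In both libraries alone 4 were higher, B4galt7, Chpf, Chpf2 and Chst15, near the share of all genes, and Csgalnact1 had no ratio in YFP1. The highest were the sulfotransferase Ust (7.77) and Csgalnact1 (at least 6.89, with 0 WT counts), with 99.2% and 99.4% of their Renin-null counts in 1 well, then the chain polymerising factor Chpf2 (6.01), at 59.4 CPM against 0.41. Chpf2 was detected in only 3 Renin-null wells, with 54.5% of its counts there in 1 well. All 81 of its WT counts were in 1 well. Without the highest well Ust was 1.10 above the median gene, Csgalnact1 had a bound of -1.31 that gives no direction, and 8 of the 20 enzymes were higher. The lowest were the chondroitin synthase Chsy3 (-5.87), the linkage enzyme B3galt6 (-5.76) and the sulfotransferase Chst14 (-3.43). Without its highest well, Chst14 was 2.62 above the median gene.

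Of 7 keratan sulfate enzymes 5 had a ratio and 4 of them were higher, in each library too. The galactosyltransferase B4galt1, which also serves other glycans, was at 66.8 CPM in WT and 595 in Renin-null cells and was detected in 10 of 51 and 50 of 96 wells. B3gnt2, which extends N-acetyllactosamine chains, was at 0.12 and 113 CPM and was detected in 7 YFP1 and 8 YFP2 wells but 1 WT well. Chst1 was 5.05 above the median gene and B4galt4 at least 4.86. Each of these 2 was detected in only 2 Renin-null wells, and Chst1 in 0 wells of YFP1. Without the highest well they were 6.89 and at least 2.88 above the median gene. Chst2 was lower, at -1.76, but lay at -0.11 without its highest well.

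The fibrillar collagens are the ligands of these proteoglycans. Of 9 genes, 7 had a ratio, 4 were higher and 0 lower. Col3a1 went from 2.17 CPM in WT to 97.3 in YFP1 and 899 in YFP2, 6.77 above the median gene, and was detected in 1 WT and 44 Renin-null wells. Col1a1 was at 6.97, 62.8 and 374 CPM, 3.89 above it, and was detected in 3 WT and 49 Renin-null wells. Col5a1 (7.79) had 97.0% of its Renin-null counts in 1 well, without which it was 0.43 above the median gene, and 3 of the 6 collagens that kept a ratio were then higher. Col1a2 (-0.07), Col5a2 (-0.19) and Col11a2 (0.62) lay near the median gene.

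Of 12 proteases and other partners, all had a ratio, 5 were higher and 2 lower. Pcolce2 (9.32), Mmp2 (at least 6.78) and Pcolce (5.44) led, but 82.8% of the Pcolce2 and 75.7% of the Mmp2 counts were in 1 well, without which these were at 7.06 and 4.02. Pcolce, which enhances procollagen cleavage, was detected in 13 Renin-null wells and 0 WT wells. The lowest were the microfibril gene Fbn1 (-2.90) and the aggrecan-cleaving protease Adamts5 (-1.87). Tll2 had 0 counts in WT and 5 in Renin-null wells, so its value of -1.45 is a lower bound and gives no direction. Of 12 ligands and receptors 11 had a ratio, 5 higher and 2 lower. Egfr (8.21) had 97.0% of its Renin-null counts in 1 well. Tlr4, an innate receptor for soluble biglycan, was 6.45 above the median gene, at 0.15 CPM in WT and 29.0 in Renin-null cells, and was detected in 10 Renin-null and 0 WT wells. Met was at least 6.42 above it. Lrp1 (-3.41), Tgfbr2 (-1.83) and Tgfb1 (-0.81) were the lowest.

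**Figure D5:**
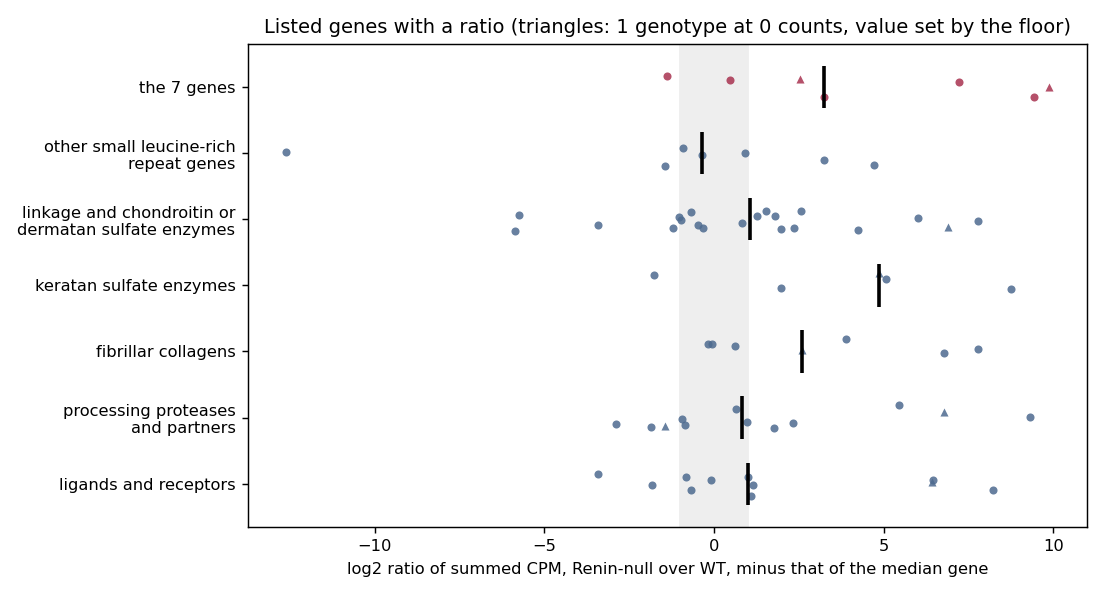
Log2 ratio of summed CPM (Renin-null over WT) minus that of the median gene for the 7 genes and 6 lists; points are genes, triangles those with 0 counts in 1 genotype, black bars list medians and the grey band less than 2-fold. The medians run from -0.34 for the other small leucine-rich repeat genes to 4.86 for the keratan sulfate enzymes, and every list has genes on both sides of 0.

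Marker lists of other cells also differed between the genotypes, and their counts stand beside the same shares of all genes (37.6% higher, 32.3% lower). The 10 fibroblast markers summed to 642 CPM in WT, 822 in YFP1 and 2141 in YFP2. Of those with a ratio, 5 of 8 were higher and 2 lower, Mfap5 (-8.98) and Gsn (-1.34). Mfap5 was detected in 0 Renin-null wells and 1 WT well, which held 89.6% of its WT counts. Gsn had 53.7% of its WT counts in 1 well, but was detected in 11 WT and 49 Renin-null wells. Without the highest wells Mfap5 was at -8.17 and Gsn at -1.13. Gsn was the most abundant in WT (462 CPM) and Col3a1 in YFP2. Dpt was at 0 in both genotypes and Clec3b at 0 in WT, and 3 of these markers are the collagens Col1a1, Col1a2 and Col3a1. The 7 smooth muscle markers summed to 12534 and 12987 CPM, led by Acta2 in WT and Tagln in Renin-null cells. Against the median gene 0 of these were higher and 5 of 7 lower. Over single wells the picture differed, with a median list sum of 430 CPM in WT and 6506 in Renin-null wells. The 7 pericyte and mural markers, led by Rgs5 with Kcnj8 at 0 in WT, summed to 12404 and 14852, with 2 higher and 4 lower. Their median list sum over wells was 565 CPM in WT and 6171 in Renin-null wells. The renin cell list (Ren1 and Akr1b7) summed to 100551 CPM in WT and 2011 in Renin-null cells.

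Podocyte markers summed to 86.1 CPM in WT, 143 in YFP1 and 906 in YFP2, led by Synpo and in YFP2 by Nphs1, with Podxl at 0 in WT. Endothelial markers summed to 32.3, 26.1 and 368 CPM, led by Emcn and in YFP1 by Kdr, with Cdh5 and Tek at 0 in WT. YFP2 well 83 alone reached 8307 CPM of this list. The median well had 8.87 CPM in WT, 2.81 in YFP1 and 5.25 in YFP2. With the highest well of each gene left out, 4 of the 6 endothelial markers were still called higher. Proximal tubule markers, led by Slc34a1 and in YFP1 by Slc27a2, summed to 19.8 CPM in WT and 291 in Renin-null cells. Loop and distal tubule markers, led by Slc12a1 in Renin-null and Calb1 in WT cells, summed to 0.515 and 109. Collecting duct markers, led by Aqp2 in Renin-null and Hsd11b2 in WT cells, summed to 10.1 and 45.7. By library the last sum was 2.96 CPM in YFP1, below WT, and 81.4 in YFP2. Of those with a ratio, 4 of 5 podocyte, 4 of 6 endothelial, 5 of 6 proximal tubule, 4 of 4 loop and distal tubule and 1 of 4 collecting duct markers were higher. Macrophage markers summed to 0.985 and 4.36 CPM, led by Ptprc, with Adgre1 and C1qb at 0 in both genotypes and Cd68, C1qa and Lyz2 at 0 in WT. With the 14 wells that held markers of another cell type left out, the log2 ratios were 1.85 for Bgn, 4.36 for Ogn, 10.85 for Dcn and at least 11.25 for Aspn, and 5 of the 7 genes were called higher (all genes: 37.9%).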

How the data were processed

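Estimated counts per gene were deposited by the authors for each well. The submitters' processing notes name FastQC 0.11.5, Trimmomatic 0.39 and Salmon 0.11.2, with builds GRCm38.p6 and mm10. The authors scaled the estimated counts by transcript length and library size. Here they were rounded, summed over the wells of a genotype and scaled to CPM. Log2 ratios carry exact conditional intervals, and shares of wells Clopper-Pearson intervals, both at 95% and for counting error only. Where a genotype had 0 counts, 3 summed counts stood in for it, and genes with at most 3 in both genotypes got no ratio; a gene with 0 WT counts was never called lower. The wells cannot be assigned to mice, so no test was made. The ratio and thinning steps were tested on simulated data. Alternatives were thinning to 62000 counts, TMM of edgeR 4.0.16, well filters, each library alone and other detection limits.

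The genes named are the 7 members, Acta2, Akr1b7 and Ren1, the 3 highest and 3 lowest of each pathway list, the most abundant gene of each marker list and its genes at 0, and the 5 genes most like Bgn and Ogn; Pdgfra, Mfap5, Cenpp, B4galt7, Chpf and Chst15 were named after their values were seen. The value of 1 marker gene that this rule covers is not reported here. The members and lists were chosen with earlier results of these data known. Positions and lengths are from GENCODE M21. Scripts used Python 3.11.15.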

Additional observations from a re-analysis of the deposited data

How the results depend on the processing

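The count of 5 genes at least 2-fold above the median gene (all genes: 37.6%) was 4 or 5 under 11 other settings (all genes: 32.3% to 39.0%) and 4 in both libraries taken alone (24.1%), and 3 on the difference of mean log2(CPM + 1), where only 7.13% of all genes were called. The median of the 7 (3.24) was 3.05 with mean CPM over wells, 0.77 with mean log2(CPM + 1), 3.81 in YFP1, 3.79 in YFP2, 6.74 without the highest wells, 3.07 in wells passing the quality limits, 3.13 without wells holding markers of another cell type and 7.11 over genes with at least 100 summed counts, where Lum and Fmod drop out. TMM moved the median log2 ratio of all genes from 1.17 to 0.47 and leaves values above the median gene unchanged by construction. The Lum ratio, on 11 counts, became 0.41 with mean CPM and 0.45 in YFP2. Wells with a member, Acta2 and Akr1b7 (41.2% of WT, 54.2% of Renin-null) were 90.2% and 95.8% at a limit of 1 count, 11.8% and 43.8% at 100 CPM for all genes, 25.5% and 47.9% at 100 CPM for Acta2 and Akr1b7 alone, and 36.7% and 69.9% after thinning. Of Renin-null wells they were 37.5% in YFP1, 70.8% in YFP2 and 71.9% in wells passing the quality limits, against 53.3% of such WT wells.

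In those wells rho was 0.33 for Bgn with Acta2 and 0.49 with Akr1b7, 0.087 for Ogn with Acta2 and -0.050 with Akr1b7, and in WT 0.14 and -0.175 for Bgn. Ogn with Acta2 gave 0.13 in YFP1 and 0.44 in YFP2, and with Akr1b7 0.0056 in YFP1. The causes were not tested. No paired analysis was possible because the replicate numbers only name wells. Genes seen in few wells rest on those wells, and without molecular identifiers counts are not independent molecules.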
